A study of Mus musculus with 8 samples.

Results

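The CDK inhibitors and the retinoblastoma (RB) family are 10 genes of the 27179 in the expression table, taken by name and not by their values. They are *Cdkn1a*, *Cdkn1b* and *Cdkn1c* of the CIP/KIP family, *Cdkn2a*, *Cdkn2b*, *Cdkn2c* and *Cdkn2d* of the INK4 family, and *Rb1*, *Rbl1* and *Rbl2*. Of the 10, 8 passed the filter on low values and were tested among 11406 genes, while *Cdkn2a* and *Cdkn2b* were listed at 0 in every library. The cells were C2C12 myoblasts, a single immortalized mouse line, grown on collagen-coated dishes in high glucose DMEM. Growth medium (GM) samples were taken at 50% confluence in 10% fetal bovine serum. The samples in differentiation medium (3d DM) had passed 90% confluence and then spent 3 days in 2% horse serum, so medium, density and time differ together between the groups. Each state has 2 input RNA libraries and 2 libraries of RNA precipitated with an antibody against N6-methyladenosine (m6A). No label says that replicates came from separate cultures, so p-values measure at most the spread between these samples. The main fit of input RNA takes that spread from all genes of like signal and not from the replicates of the gene named.

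These genes form the brake on the cell cycle that a myoblast applies when it leaves the cycle to fuse. INK4 proteins bind CDK4 and CDK6 and keep cyclin D away from them, whereas CIP/KIP proteins bind cyclin and CDK together and block mainly the complexes of CDK2. With the kinases held back, the pocket proteins RB, p107 (from *Rbl1*) and p130 (from *Rbl2*) stay unphosphorylated and hold E2F factors, which otherwise turn on the genes of DNA replication. In cycling cells p107 is the more prominent partner of E2F, and p130 takes that place in quiescent and differentiated cells.

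The 10 members did not share a direction. *Cdkn1a*, *Rb1* and *Cdkn1c* rose in 3d DM, *Rbl1* fell, and *Cdkn1b*, *Cdkn2c*, *Cdkn2d* and *Rbl2* did not pass the test. Thus 3 of the 8 tested members were called higher, where 7.01% of all tested genes were, and 1 was called lower, where 9.96% were. The test was limma on log2(signal + 1), with p-values adjusted over all 11406 genes and called under 0.05, and log2 fold changes are 3d DM minus GM. Both 3d DM libraries lay above both GM libraries for *Cdkn1a*, *Cdkn1c* and *Rb1*, as for 16.8% of all tested genes. They lay below both for *Cdkn2c*, *Cdkn2d* and *Rbl1*, as for 37.0%. With 2 libraries per state an exact permutation test of 1 value cannot give a p-value under 0.33.

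The unit of the input RNA values is a signal that the authors normalized, and how many reads stand behind a value is unknown. Its largest single entry took 24.4% and 33.2% of the GM libraries against 41.3% and 25.6% of the 3d DM libraries. The library at 41.3%, 3d DM replicate 1, also had the lowest median-of-ratios factor (log2 −0.36). The part of that entry in the results was not tested. The deposited values place the median of all tested genes at a log2 fold change of −0.22, and rescaling by median-of-ratios factors moves it to 0.01. The calls then change from 800 higher and 1136 lower to 1369 higher and 1275 lower. All 8 members kept their direction under that rescaling and under trimmed-mean rescaling, and the same 4 were called. Of these, *Cdkn1c* was close to the limit, with a limma adjusted p of 0.046 and 0.049 in that order. All 5 myotube markers (*Myh3*, *Ckm*, *Myog*, *Acta1*, *Tnnt1*) were called higher in 3d DM, with a summed signal of 1014 to 4231 in GM and 82238 to 118583 in 3d DM. All 4 markers of cycling cells (*Mki67*, *Top2a*, *Ccnb1*, *Cdk1*) were called lower, with sums of 11297 to 12709 in GM and 1224 to 2362 in 3d DM. The 5 markers of other cell types (*Ptprc*, *Pecam1*, *Cdh5*, *Adipoq*, *Epcam*) summed to at most 2.29 in any library, with *Adipoq* at 0 in all 4 and *Ptprc* and *Cdh5* at 0 in both GM libraries. In bulk RNA, fewer cells of a type and less RNA per cell cannot be told apart. Myotube markers were not equal in GM, where their sum was 4231 in replicate 1 and 1014 in replicate 2.

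**Figure D1:**
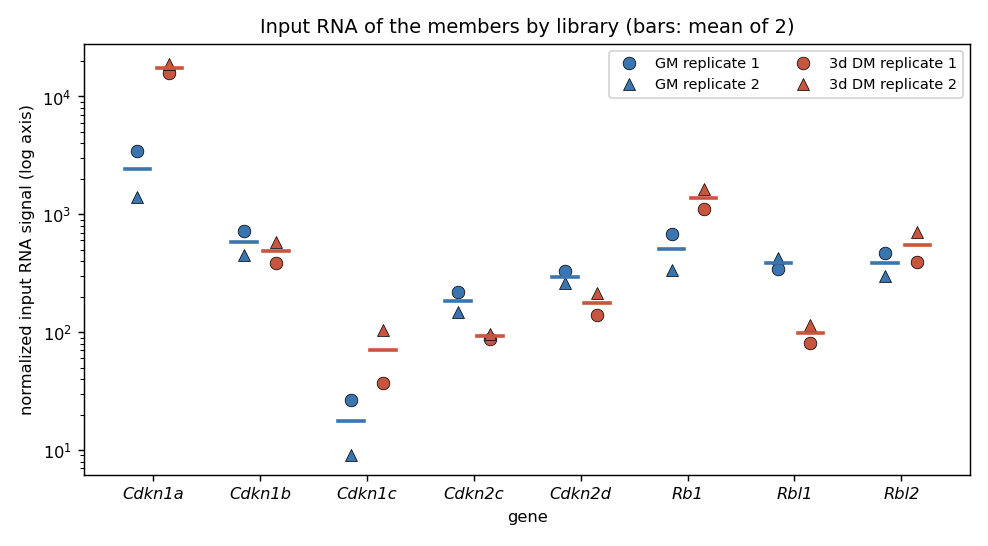
Normalized input RNA signal (log axis) of the 8 tested members in each of the 4 input libraries, with bars at the mean of 2. *Cdkn1a*, *Cdkn1c* and *Rb1* sit higher in both 3d DM libraries (red) than in both GM libraries (blue), *Rbl1* sits lower, and *Cdkn1b* and *Rbl2* overlap.

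*Cdkn1a* encodes p21, the inhibitor that binds cyclin and CDK2 and is known to be induced by p53 and by MyoD. Its signal was 3444 and 1416 in the GM libraries against 15897 and 19014 in the 3d DM libraries. Both 3d DM libraries are far above both GM libraries, and GM replicate 1 holds more than replicate 2. The log2 fold change was 2.98 ± 0.40 (SE; adjusted p = 1.1e-11), a ratio of 7.18 between the means of 17456 ± 2204 and 2430 ± 1434 (SD, n = 2 each). That p-value draws its variance from the intensity trend over all genes, and the limma adjusted p was 0.0043 after median-of-ratios and 0.0046 after trimmed-mean rescaling. Per kb of exon, *Cdkn1a* stood above 99.7% and 99.8% of the tested genes in the 3d DM libraries and above 96.9% and 92.9% in those of GM. The difference was called in every alternative except the 2 that leave a single 3d DM library, where limma gave an adjusted p of 0.063 or 0.058 without replicate 1 or 2, and where the lone library is assumed to vary like the others. GM replicate 1, the higher of the 2 for *Cdkn1a*, was also the higher for all 5 myotube markers and for every other tested member except *Rbl1*. The part of the myotube markers in the result was not tested.

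MeRIP-seq compares fragments precipitated by the m6A antibody with the input, and a peak list gives for each peak the fold enrichment of one over the other. The methyltransferase is known to prefer an adenosine inside a short consensus, of which GGACT (in DNA letters) is the commonest form, often near the stop codon. *Cdkn1a* had a peak in its 3′ UTR at chr17:29099439-29099917 (mm10, plus strand), with a fold enrichment of 2.59 in GM replicate 1 against 2.04 and 1.41 in the 3d DM replicates. GM replicate 2, the library with the least *Cdkn1a* RNA, listed none. A further peak at the 3′ end, chr17:29100603-29100722, was listed in 3d DM replicate 2 alone, at 1.46. The values of 1.41 and 1.46 are the lowest enrichments of any member peak, although their P values were 2.0e-26 and 4.0e-25. The 359 bases that all 3 lists share hold no GGACT on the transcript strand. The one copy in the peak, 461 bases past the last coding base, lay in the lines of GM replicate 1 and 3d DM replicate 1. It is shown in capitals with the bases around it (chr17:29099837-29099866), and 39.4% of windows of the peak's 479 bases, tiled over the longest coding transcript of each gene, hold at least 1 copy.
Cdkn1a 3′ UTR: gaaaaatgagtaGGACTttggggtctcctt

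*Cdkn1b* encodes p27, the inhibitor that Skp2 and Cks1 send for degradation, so that its amount is known to be set largely at the protein. Its RNA was 722 and 448 in GM against 387 and 586 in 3d DM. The groups overlap, and the log2 fold change was −0.26 ± 0.44 (limma adjusted p = 0.80). It was 0.089 when GM replicate 1 was left out and 0.042 when 3d DM replicate 1 was, so its direction is not settled.

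The merged *Cdkn1b* peak at chr6:134920940-134924407 (plus strand), over the coding sequence and the start of the 3′ UTR, was 1 of 2 member peaks found in all 4 lists. Its fold enrichment was 7.0 and 3.08 in GM against 2.74 and 2.07 in 3d DM. Both 3d DM values lie below both GM values, and the log2 difference was −0.96 ± 0.44 (limma adjusted p = 0.996; unadjusted p = 0.048). The value of 7.0 comes from 1 of the 3 transcripts to which GM replicate 1 assigned the peak, the other two having 2.68 and 2.8. Without GM replicate 1 the difference was −0.37. The lines of 3d DM replicate 2 lay in the coding sequence and those of replicate 1 began near the stop codon, and they share no base. The peak's GGACT in the coding sequence, at chr6:134921036-134921065, was covered in 3 lists, those of both GM replicates and of 3d DM replicate 2. It is shown as the only copy in the 197 bases that 3 of the 4 lists cover, a length at which 18.6% of windows hold one.
Cdkn1b coding sequence: agaactaacccgGGACTtggagaagcactg

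*Cdkn1b* had a separate peak at the 3′ end of its transcripts, chr6:134925363-134925513. GM replicate 1 listed it at 2.0 and 3d DM replicate 1 at 2.54, with P values of 0.0047 and 0.00020. It holds no GGACT on the transcript strand.

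*Cdkn1c* encodes p57, an imprinted inhibitor expressed in differentiating muscle. Per kb of exon it was the lowest of the tested members in both GM libraries, at 13.3 and 4.55. Its signal was 26.5 and 9.05 in GM against 37.1 and 103.8 in 3d DM. The groups do not overlap, yet 3d DM replicate 1 is closer to GM replicate 1 than to its own replicate. The log2 fold change was 1.93 ± 0.62 (limma adjusted p = 0.0142). The gene passed the filter, a signal of 25.1 in at least 2 libraries, through both 3d DM libraries and GM replicate 1. The call rests on 3 libraries, as the limma adjusted p was 0.50 without GM replicate 2 and 0.17 or 0.39 without 3d DM replicate 1 or 2.

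The *Cdkn1c* peak, chr7:143459837-143460114 on the minus strand, lay in the coding sequence. GM replicate 1 gave it a fold enrichment of 9.62, and 3d DM replicates 1 and 2 gave 2.87 and 13.4, while GM replicate 2 listed none. The GM value lies between the 2 values of 3d DM. The smallest P value in any list was 0.00028, so the peak drops out at a limit of 1e-05.

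The INK4 genes showed no call. *Cdkn2a*, which encodes p16INK4a and p19ARF, and its neighbour *Cdkn2b*, which encodes p15INK4b, were listed at 0 in all 4 libraries and had no peak. *Cdkn2c* encodes p18INK4c, known to prefer CDK6, and its signal was 219 and 148 in GM against 86.8 and 97.4 in 3d DM. Both 3d DM libraries are below both GM libraries, with a log2 fold change of −0.96 ± 0.50 (limma adjusted p = 0.20). *Cdkn2d* encodes p19INK4d, and its signal was 331 and 262 in GM against 139 and 214 in 3d DM. Here too the groups do not overlap, and the log2 fold change was −0.77 ± 0.47 (limma adjusted p = 0.31). With median-of-ratios rescaling the values were −0.73 (adjusted p = 0.098) for *Cdkn2c* and −0.54 (adjusted p = 0.10) for *Cdkn2d*.

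*Cdkn2c* had 2 peaks, both in the lists of GM replicate 1, GM replicate 2 and 3d DM replicate 2, and 3d DM replicate 1 listed neither. The peak over the stop codon, chr4:109661174-109661414 (minus strand), had a fold enrichment of 3.63, 2.9 and 5.29 in that order. The peak in the 5′ UTR, chr4:109666028-109666564, had 4.06, 5.12 and 6.12. In each peak the single 3d DM value is above both GM values, and with 1 list there is no test. For the peak over the stop codon the smallest listed P values were 3.3e-06, 2.3e-05 and 0.0018 in that order. For the peak in the 5′ UTR they were 3.2e-13, 2.3e-09 and 0.00043. At a limit of 1e-05 *Cdkn2c* kept a peak in the GM lists alone. The 5′ UTR peak is the only one of the members away from the coding sequence and 3′ UTR, and its 2 copies of GGACT, both within the lines of both GM libraries, are shown for that reason. They lie at chr4:109666472-109666501 and chr4:109666277-109666306, and 43.0% of windows of the peak's 537 bases hold at least 1 copy. *Cdkn2d* had no peak in any list.
Cdkn2c 5′ UTR, copy 1: tttgggggagtcGGACTacaaaagaaactg
Cdkn2c 5′ UTR, copy 2: aagaagttggcgGGACTggctgcgcccggg

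**Figure D2:**
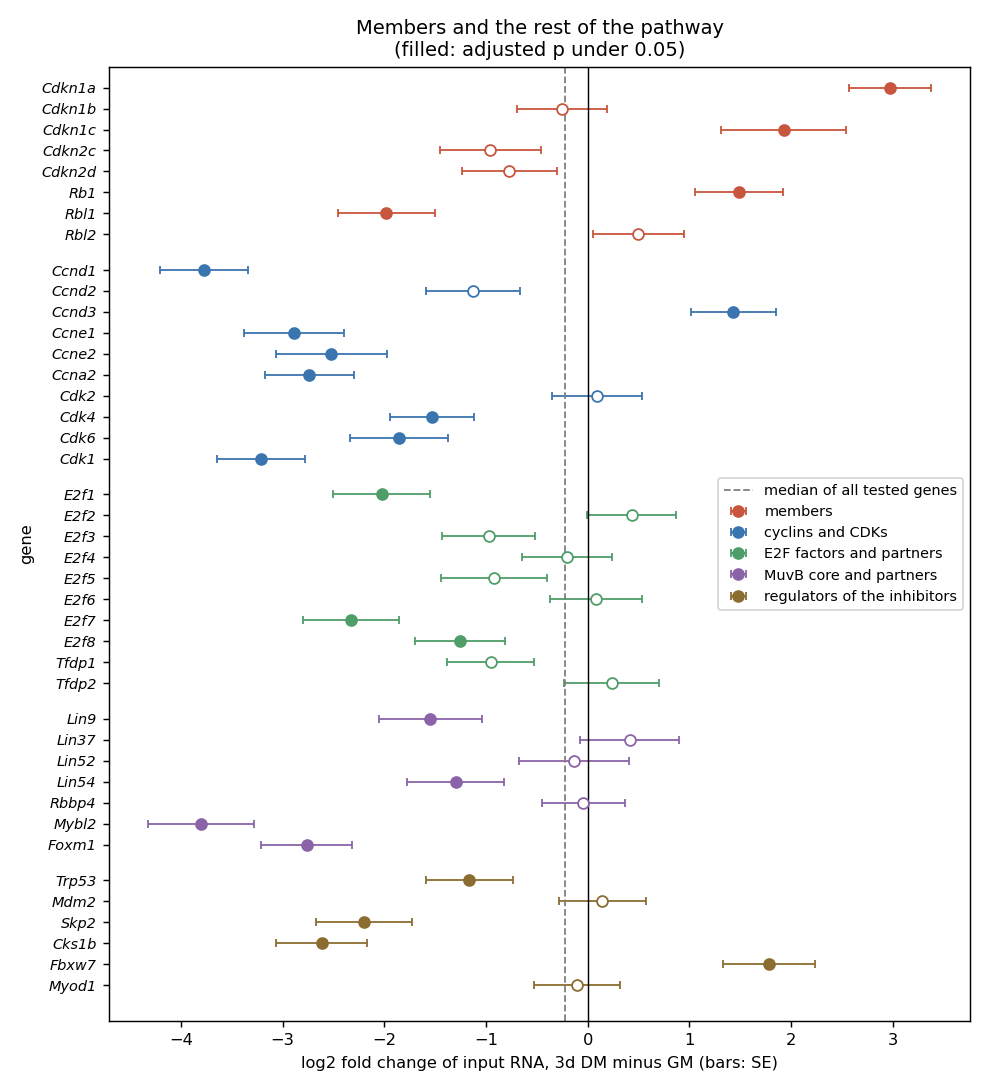
Log2 fold change of input RNA (3d DM minus GM, bars SE) for the 8 tested members and the 33 genes of 4 pathway lists, filled where the adjusted p is under 0.05, with a dashed line at the median of all tested genes (−0.22). *Cdkn1a*, *Cdkn1c* and *Rb1* lie to the right with *Ccnd3* and *Fbxw7*, and *Rbl1* lies to the left with 17 called pathway genes.

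Among the pocket proteins, *Rb1* rose, *Rbl1* fell and *Rbl2* did not pass. *Rb1*, which encodes RB, had a signal of 685 and 337 in GM against 1115 and 1644 in 3d DM. Both 3d DM libraries are above both GM libraries, and the log2 fold change was 1.49 ± 0.43 (limma adjusted p = 0.0051), a ratio of 2.70 between the means. Its limma adjusted p was 0.62 without GM replicate 2 and 0.15 or 0.19 without 3d DM replicate 1 or 2. GM replicate 1, the library with more of the myotube markers, had the higher *Rb1* value of the 2 GM libraries. The same held for every other tested member except *Rbl1*, including those that were not called. The median-of-ratios factor was also higher in GM replicate 1 than in GM replicate 2 (log2 0.234 against 0.002).

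*Rbl1*, which encodes p107 and is itself a known E2F target, moved the other way. Its signal was 343 and 428 in GM against 80.8 and 115 in 3d DM. Both 3d DM libraries are below both GM libraries, and GM replicate 2 holds more than replicate 1. The log2 fold change was −1.98 ± 0.48 (limma adjusted p = 0.00042), and the mean in GM was 3.94 times that in 3d DM. The adjusted p was 0.11 without GM replicate 2 and 0.098 without 3d DM replicate 1. The summed markers of cycling cells were lower in the same libraries (11297 to 12709 in GM against 1224 to 2362 in 3d DM), and their part in the result was not tested.

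*Rbl2*, which encodes p130, had a signal of 469 and 297 in GM against 394 and 705 in 3d DM. The groups overlap on the deposited scale, an overlap that depends on the scaling of the libraries. The log2 fold change was 0.50 ± 0.45 (limma adjusted p = 0.55). After median-of-ratios rescaling it was 0.73 ± 0.23 (adjusted p = 0.073). Of the member genes, *Rbl2* alone shares exon bases with another gene, *Aktip* on the opposite strand, over 72 bases of an internal exon and the last 346 bases of the 3′ UTR, and whether the counting used strand is not given in the sources used here.

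The 3 pocket proteins were also set against each other within a library, where scaling cancels. Per kb of exon, *Rbl1* made up 23.4% and 40.6% of their summed signal in GM against 5.43% and 4.93% in 3d DM. *Rb1* made up 40.5% and 27.6% in GM against 64.7% and 61.0% in 3d DM. The share of *Rbl2* was 36.1% and 31.7% in GM against 29.8% and 34.1% in 3d DM. The shares of *Rb1* and *Rbl1* do not overlap between the states, while those of *Rbl2* do, and no exact test of 2 libraries against 2 can go below 0.33. In order of level per kb, *Rbl1* was highest of the 3 in GM replicate 2 and lowest in the other 3 libraries. *Rb1* stood above *Rbl2* in both 3d DM libraries, by a ratio of 2.17 and 1.79, and in GM by 1.12 in replicate 1 and 0.87 in replicate 2, so those neighbours have no fixed order in GM. The ratio of *Rb1* to *Rbl1* was 1.73 and 0.68 in GM against 11.9 and 12.4 in 3d DM.

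The inhibitors were dominated by 1 member in both states. *Cdkn1a* made up 72.7% and 61.6% of the signal per kb of all inhibitors in GM against 96.2% and 95.1% in 3d DM. *Cdkn1b* was next, with 12.9% and 16.5% in GM against 1.98% and 2.48% in 3d DM. *Cdkn2d* followed with 9.65% and 15.7% in GM, close to *Cdkn1b* in replicate 2. *Cdkn2c* held 4.17% and 5.80% in GM against 0.474% and 0.440% in 3d DM, and *Cdkn1c* held under 1% in every library, between 0.230% and 0.573%. Shares add to a fixed total, and the signals of *Cdkn1b*, *Cdkn2c* and *Cdkn2d* themselves were not called lower.

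**Figure D3:**
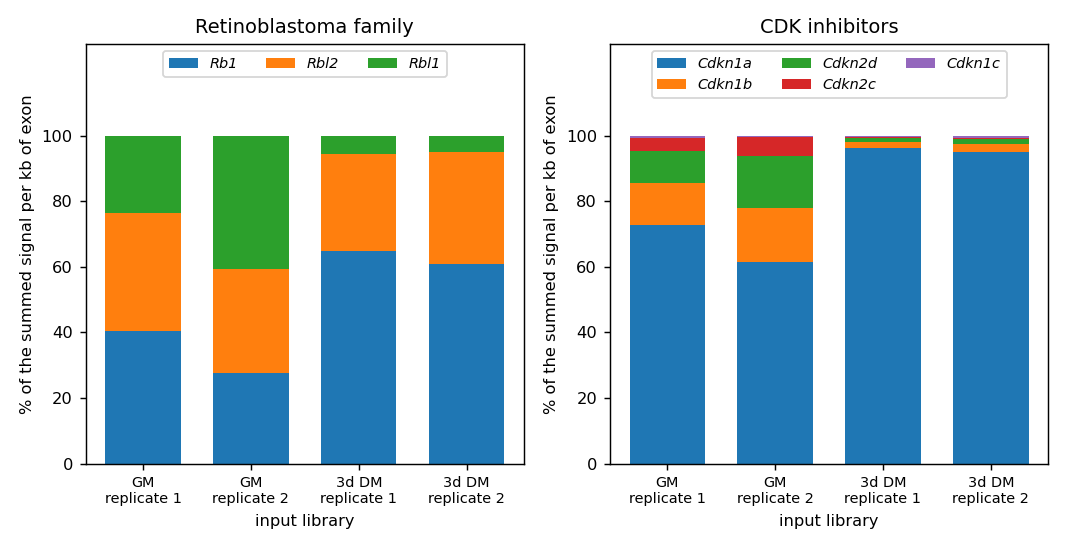
Share of each gene in the summed input signal per kb of exon, for the RB family (left) and the CDK inhibitors (right), 1 bar per library. *Rbl1* takes 23.4% and 40.6% of the RB family in GM and about 5% in 3d DM (5.43% and 4.93%), and *Cdkn1a* takes over 60% of the inhibitors in every library.

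m6A peaks of the pocket proteins differed by gene. *Rbl1* had no peak in any list, nor did *Cdkn2d*, so 2 of the 8 tested members were without one, where 23.8% of the tested genes with a symbol were. *Rb1* had peaks in both 3d DM lists and in neither GM list, the 1 member of 8 with that pattern, which 1.74% of the tested genes showed. The *Rb1* peak in both lists, chr14:73264481-73272669 (minus strand, spliced, 300 exonic bases in the coding sequence), had a fold enrichment of 2.61 in 3d DM replicate 1 and 5.13 in replicate 2, with P values of 6.3e-09 and 2.5e-06. A further one in the coding sequence, chr14:73205826-73213074, was listed in 3d DM replicate 1 alone, at 2.4. The input signal of *Rb1* was also higher in 3d DM (1115 and 1644 against 685 and 337), and the part of RNA level in what was listed was not tested.

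Of the 2 member peaks in all 4 lists, the one of *Rbl2* varied less. It covered the end of the coding sequence and the start of the 3′ UTR, chr8:91115677-91122842 on the plus strand, and was listed in all 4 libraries. Its fold enrichment was 4.69 and 5.37 in GM against 4.67 and 5.49 in 3d DM. The groups overlap, and the log2 difference was 0.01 ± 0.44 (SE; limma adjusted p = 0.998). All 4 lists covered the same 336 bases, chr8:91122435-91122770, with 3 copies of GGACT, all in the 3′ UTR and 51, 67 and 244 bases past the last coding base. Of windows of 336 bases, 29.7% hold at least 1 copy and 0.735% hold 3 or more. The 3 copies are shown because every library's peak contains them. The windows of copies 1 and 2, chr8:91122480-91122509 and chr8:91122496-91122525, overlap, and copy 3 lies in chr8:91122673-91122702.
Rbl2 3′ UTR, copy 1: aactggttagcaGGACTtaatgcatgcagg
Rbl2 3′ UTR, copy 2: ttaatgcatgcaGGACTacggaaccttgct
Rbl2 3′ UTR, copy 3: tgagggcaacttGGACTacatgtaaccctt

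A second *Rbl2* peak at the very end of the 3′ UTR, chr8:91123632-91123844, was listed in 3d DM only, at 5.47 in replicate 1 and 2.44 in replicate 2. This stretch is also 3′ UTR of *Aktip*. On that gene a peak at chr8:91123618-91124212 was listed in all 4 libraries, with a fold enrichment of 3.12 and 2.17 in GM against 5.06 and 2.99 in 3d DM. The authors made the libraries with a stranded kit, but whether peak calling used strand is not given. To which of the pair the precipitated fragments belong therefore cannot be told apart from the peak lists. The peak at the *Rbl2* stop codon shares no exon base with *Aktip*.

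**Figure D4:**
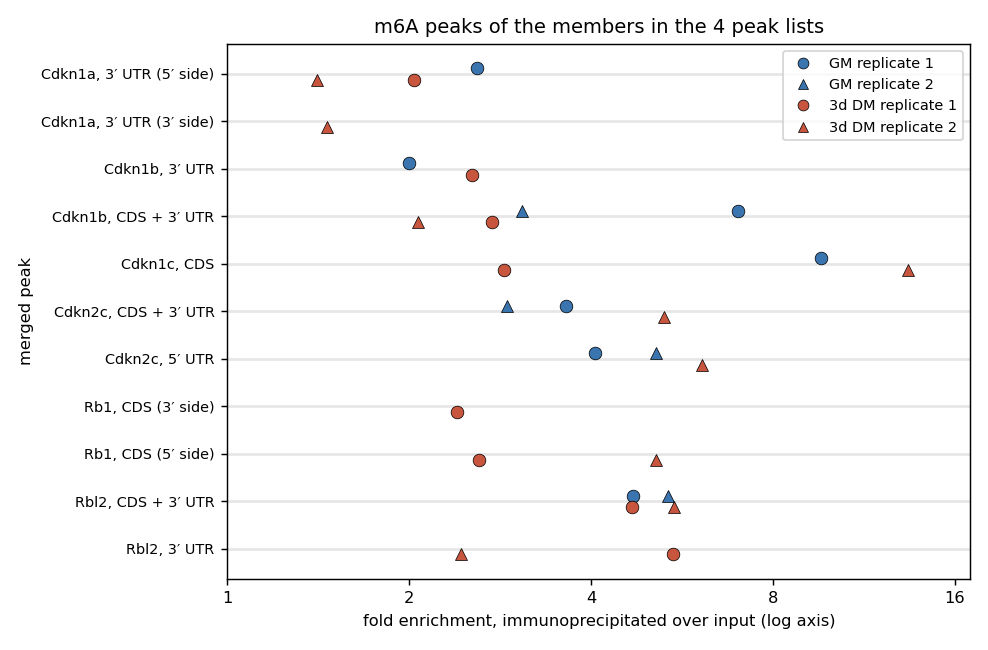
Fold enrichment (immunoprecipitated over input, log axis) of the 11 merged member peaks, 1 point per library that listed the peak. The *Rbl2* peak at the stop codon holds all 4 points between 4.67 and 5.49, *Rb1* has points of 3d DM alone, and *Cdkn1c* runs from 2.87 to 13.4.

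Counted by library, members with at least 1 peak numbered 5 and 3 of 8 tested in GM against 5 and 6 in 3d DM. The mean was 4.0 ± 1.4 in GM and 5.5 ± 0.71 in 3d DM (SD, n = 2 each; two-sided exact permutation p = 0.67). Across all tested genes with a symbol the share was 63.8% and 60.4% in the GM lists against 62.8% and 53.5% in the 3d DM lists. The list with the fewest genes, 3d DM replicate 2, was the one in which 6 members had a peak. *Cdkn1b* and *Rbl2* had a peak in all 4 lists, 2 of the 8, where 42.6% of the tested genes did. Neither passed the test of fold enrichment across the 6055 merged peaks present in every list, of which limma called none (0.0%) and 208 had an unadjusted p under 0.05. Over those peaks the median log2 difference was −0.11.

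**Figure D5:**
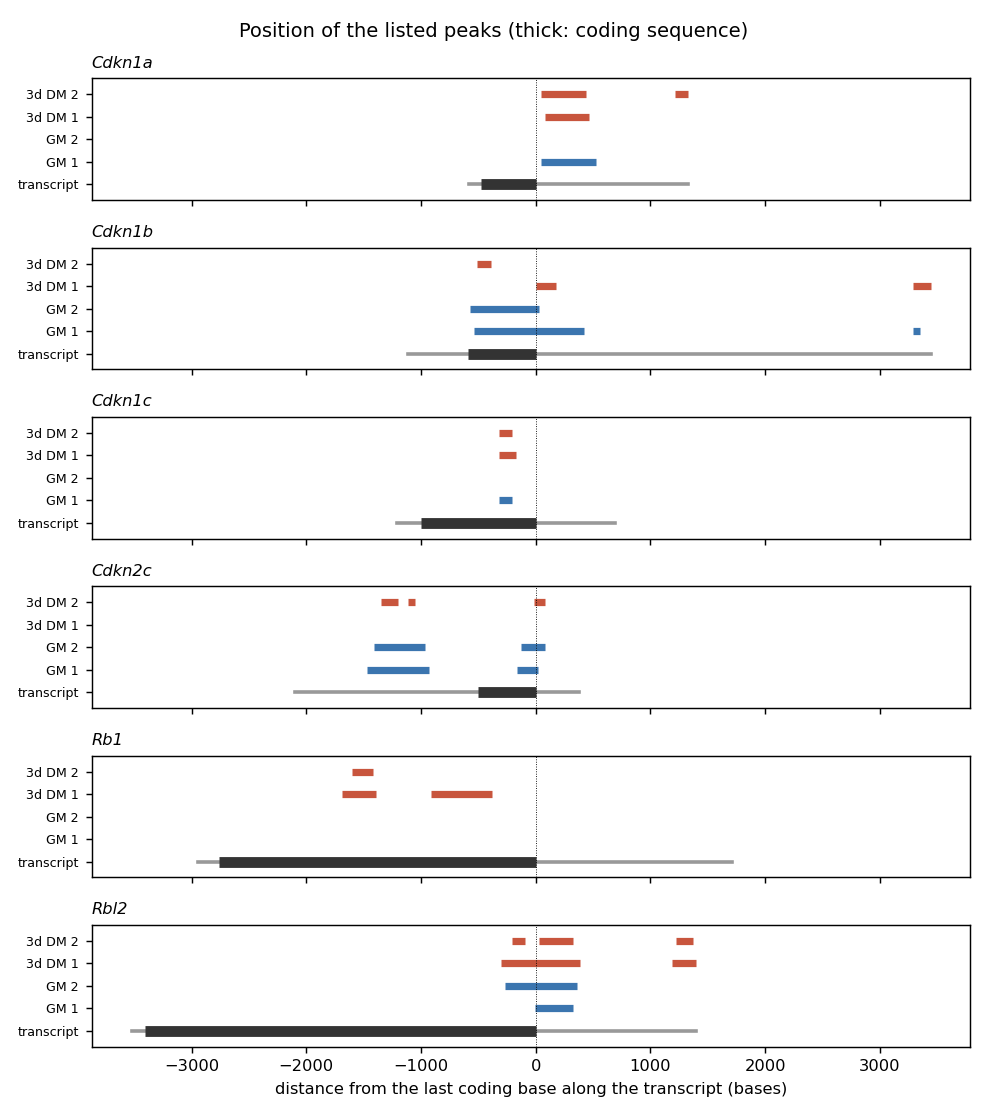
Listed peaks of the 6 members that have any, placed on the GENCODE M21 transcript with lines in the most lists (the longest where tied), as distance in bases from the last coding base, with the coding sequence as the thick bar and 1 row per library (GM blue, 3d DM red). *Rbl2* has a peak close to the stop codon, one of *Cdkn1b* spreads over the coding sequence and the start of the 3′ UTR, and each has another near the 3′ end. Both peaks of *Cdkn1a* lie past the stop codon, and those of *Rb1* stay inside the coding sequence.

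Of the 33 other genes of the pathway, 17 fell, 2 rose and 14 did not pass. Their p-values in the main fit also draw their variance from the intensity trend over all genes. After median-of-ratios rescaling the limma adjusted p was 0.0029 for *Ccnd1*, 0.0081 for *E2f7*, 0.0084 for *Mybl2* and 0.0018 for *Cks1b*. Of the 10 cyclins and CDKs, 7 fell and 1 rose. *Ccnd1*, the cyclin D1 that partners CDK4 and CDK6, had a signal of 2395 and 4037 in GM against 178 and 287 in 3d DM, a log2 fold change of −3.77 ± 0.43 (limma adjusted p = 2.2e-16), and was called in every alternative run. *Ccnd3*, the D cyclin known to stay in myotubes, had 1339 and 749 in GM against 2234 and 3273 in 3d DM. Its log2 fold change was 1.43 ± 0.42 (limma adjusted p = 0.0057, and 0.074 with the replicate block). Its adjusted p was 0.54 without GM replicate 2, 0.12 without 3d DM replicate 1 and 0.17 without replicate 2. *Cdk2* and *Ccnd2* did not pass.

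Of the 10 E2F factors and partners, 3 fell (*E2f1*, *E2f7* and *E2f8*), none rose and 7 did not pass. The call of *E2f8* (limma adjusted p = 0.030) was lost after median-of-ratios rescaling (0.0505), after trimmed-mean rescaling (0.0508), with the replicate block (0.17) and without GM replicate 1 (0.27), GM replicate 2 (0.55) or 3d DM replicate 1 (0.36). That of *E2f1* was lost without GM replicate 1 (0.056) or 3d DM replicate 1 (0.089). *E2f7*, an atypical E2F that represses, had 391 and 583 in GM against 84.4 and 105 in 3d DM, a log2 fold change of −2.33 ± 0.47 (limma adjusted p = 1.4e-05, and 0.072 without 3d DM replicate 1 and 0.054 without GM replicate 2). *E2f4*, which binds the pocket proteins p107 and p130 in resting cells, had 590 and 705 in GM against 435 and 721 in 3d DM, and its groups overlap.

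Of the 7 genes of the MuvB core and its partners, with which p130 and p107 form the DREAM repressor, 4 fell and none rose. *Mybl2*, the partner that replaces the pocket protein in cycling cells, had 221 and 572 in GM against 18.4 and 32.8 in 3d DM, a log2 fold change of −3.80 ± 0.52 (limma adjusted p = 1.2e-11, and 0.070 without 3d DM replicate 1). *Lin9* and *Lin54* of the core were called lower (limma adjusted p = 0.016 and 0.041), but neither in any fit that left out 1 library, where the adjusted p was 0.063 to 0.33 for *Lin9* and 0.090 to 0.57 for *Lin54*, nor with the replicate block (0.073 and 0.15). The call of *Lin54* was also lost with no filter on low values (limma adjusted p = 0.057). *Lin37*, *Lin52* and *Rbbp4* did not pass.

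Of the 6 regulators of the inhibitors, 3 fell and 1 rose. *Cks1b*, the cofactor with which Skp2 marks p27, had 1134 and 1136 in GM against 146 and 232 in 3d DM, a log2 fold change of −2.62 ± 0.45 (limma adjusted p = 1.3e-07, and 0.0501 without 3d DM replicate 1). *Skp2* itself was called lower, though not without GM replicate 2 (limma adjusted p = 0.066) or 3d DM replicate 1 (0.093). *Trp53* was called lower at an adjusted p of 0.041, but not without the trend (0.068), with the replicate block (0.21) or in any fit that left out 1 library (0.063 to 0.59). *Fbxw7*, the ubiquitin ligase subunit that marks cyclin E, had 218 and 164 in GM against 646 and 660 in 3d DM, a log2 fold change of 1.79 ± 0.45 (limma adjusted p = 0.00097). Its adjusted p was 0.21 without GM replicate 2, 0.092 without 3d DM replicate 1 and 0.067 without replicate 2. *Mdm2* and *Myod1* did not pass. The 17 genes called lower and 2 called higher stand beside 9.96% and 7.01% of all tested genes, and calls numbered 9 without GM replicate 2 and 3 without 3d DM replicate 1.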

How the data were processed

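Input RNA and MeRIP-seq of C2C12 cells in GM and 3d DM were read from the deposited tables, with samples grouped by their labels and none left out. Alignment by the authors was to mm10, with HISAT2 2.1.0, and exomePeak called the peaks of each sample over its own input at a stated P of 0.05. The deposited peak lists give a p-value and a fold (ratio of immunoprecipitated over input RNA) for each peak and transcript. The deposited expression signal is named TMM by the authors, whose notes list edgeR, but how it was made is not given in the sources used here. Its column totals were nearly equal, from 12534657 to 12536233, while trimmed-mean factors computed from it ran from log2 −0.35 to 0.22. The signal is neither whole reads nor a multiple of a step and may be adjusted pseudo-counts, in which a library's value depends on its replicate. Its depth is unknown, so no counting error is given. Vanishingly small deposited values were set to 0 before they were listed. A 0 given here, as for *Cdkn2a* and *Cdkn2b*, may therefore not be an exact 0 in the deposited values. Standard errors in limma follow the intensity trend more than a gene's own replicates, and in the main RNA fit they follow it alone. Without the trend every named gene had the same SE, 0.469. After median-of-ratios rescaling the SE differed between genes, at 0.365 for *Cdkn1a* and 0.169 for *Cdk4*.

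A gene was tested where 2 or more of the 4 libraries reached 2 cpm of their column total (a signal of 25.1), with limma 3.58.1 (R 4.3.3) with a trend on log2(signal + 1) (a scale that understates changes of low genes) and Benjamini-Hochberg adjustment. Symbols came from Entrez identifiers through RefSeq (98.7% of tested genes), as did exon lengths. Lines of a gene that share at least 1 exonic base were merged, and the highest fold of a list stood for the merged peak. Fold enrichment was tested with limma on its log2 over the peaks present in all 4 lists. Sequences were read from the RefSeq GRCm38.p6 genome, and windows and positions came from GENCODE release M21. GGACT was searched on the transcript strand. Both limma fits were also run on simulated data with planted changes, drawn from the means and spread of these data. Plots used matplotlib 3.10.9 and calculations Python 3.11.15, pandas 2.3.3 and scipy 1.17.1.

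Every member is named, and from each pathway list the gene of lowest adjusted p in each direction. *Cdk2*, *Ccnd2*, *E2f4* and other pathway genes named beside them were chosen after their values were seen. The members and lists were chosen with earlier results of these data known. The alternatives were other pseudocounts, filters, rescalings, a fit without the trend, stricter peaks, other merging, the replicate number as a block, and each replicate left out in turn.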

Additional observations from a re-analysis of the deposited data

How the results depend on the processing

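The directions of *Cdkn1a*, *Cdkn1c*, *Rb1*, *Rbl1*, *Cdkn2c*, *Cdkn2d* and *Rbl2* RNA held in all 12 alternatives, and that of *Cdkn1b* reversed without GM replicate 1 (0.089) and without 3d DM replicate 1 (0.042), with leave-one-out values from −0.60 to 0.089. The number of members called, 4 as reported, ranged from 0 to 4 when 1 library was left out, and the number of pathway genes called, 19 as reported, from 3 to 13. Calls over all genes went from 1936 to between 145 (without 3d DM replicate 1) and 1252 (without GM replicate 1) in fits of 3 libraries. With the replicate number as a block, 2 members were called (*Cdkn1a* and *Rbl1*), *Rb1* having an adjusted p of 0.067 and *Cdkn1c* of 0.054. Same-numbered libraries deviated together (r = 0.29 across 11406 genes, which are not independent). There are only 2 pairs and no label ties a number to a batch, so the block is an alternative and not in the main fit. The *Rbl2* enrichment difference reversed with the median of the lines (−0.14), without GM replicate 1 (−0.085) and without 3d DM replicate 2 (−0.10), with leave-one-out values from −0.10 to 0.13, all within its SE. No member peak was called in any alternative. The difference in members with a peak, 1.5 as reported, was 0 at a P of at most 1e-05 and −0.5 at a fold enrichment of at least 4, and between 0.5 and 2.5 with 1 list left out. The cause of these shifts was not tested. Unknown depth sets no lower limit for *Cdkn2a* and *Cdkn2b*.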
